A study of Mus musculus with 6 samples.

Results

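The S100 genes encode small calcium-binding proteins, and 10 of them are described here by their symbols among the 19618 genes listed: S100a3, S100a4, S100a6, S100a8, S100a9, S100a10, S100a11, S100a13, S100a14 and S100a16. Their rows were taken by symbol, and all 10 passed the filter on low counts that left 15422 genes for testing. RNA came from tail-skin keratinocytes of mice aged 4 months, in 3 libraries from mice carrying K14cre with a homozygous floxed Gpr161 allele (the epidermal knockout) and 3 libraries from control mice without K14cre. Of the control mice, 1 had both alleles floxed and the others were heterozygous. Cre was driven by the keratin 14 promoter, which is active in basal keratinocytes, so other cell types in the preparation are not its target. Tail skin was digested overnight, the epidermis was scraped and strained, and polyA RNA was sequenced.

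S100 proteins work mainly as dimers that expose a binding surface when calcium is bound, and then attach to partners such as annexins inside the cell. Some of them are released by stressed or damaged cells and act as alarmins, which are endogenous danger signals read by receptors such as Tlr4 and Ager. In skin the best known are S100a8 and S100a9, which pair as calprotectin, sequester zinc and manganese from microbes, are abundant in neutrophils, and are induced in keratinocytes of wounded and psoriatic skin. Most S100 genes lie side by side next to the genes of the cornified envelope.

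Libraries are named by their column tags. Knockout libraries carry the tags DE679, DE685 and DE688, and control libraries DE680, DE684 and DE689. Total estimated counts ranged from 17157864 to 25344399. The columns show the group but no sample title, so the homozygous control was not singled out. Gpr161 itself had a log2 difference of −0.13 (SE 0.11; adjusted p 0.553 by Benjamini-Hochberg from the quasi-likelihood test of edgeR), so its whole-gene count does not check the labels, whereas Gli1, a transcriptional target of Hedgehog signalling that Gpr161 restrains, was higher by 2.93 (SE 0.10, edgeR adjusted p 1.77e-05). Defining keratinocyte markers were abundant, with Krt5 at 14815 ± 905 CPM (knockout) and 12799 ± 1393 CPM (control; SD, n = 3 each). CPM is the count divided by library size in units of 1e+06, after TMM (trimmed mean of M values) scaling. DE685 and DE684, 1 library of each group, carried Y-linked transcripts, and the other 4 carried Xist.

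All 10 genes lie on chromosome 3 (GRCm38). S100a13 (90514435 to 90524581), S100a14 (90526856 to 90528837), S100a16 (90537254 to 90543151), S100a3 (90584659 to 90602702), S100a4 (90603771 to 90606045), S100a6 (90612882 to 90624181) and S100a8 (90668978 to 90670035) follow each other on the plus strand. S100a9 (90692632 to 90695721) comes next on the minus strand, 22.6 kb after S100a8. S100a11 (93520488 to 93526287) and S100a10 (93555080 to 93564643) lie 2825 kb further, on the plus strand. S100a8 and S100a9 are the members the results turn on, and promoter sequence of both is shown for that reason, 5′ to 3′ on each gene's own strand, from RefSeq on GRCm38.p6. RefSeq starts S100a8 inside the gene span given above, so the last 93 of the 250 bases before its start lie within that span and are not shown, which leaves 157. The S100a8 stretch is chr3:90668821-90668977 on the plus strand and the S100a9 stretch chr3:90695722-90695971 on the minus strand. Capitals mark a match to any of the 4 motifs searched, and the S100a8 stretch shown holds none.

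S100a8: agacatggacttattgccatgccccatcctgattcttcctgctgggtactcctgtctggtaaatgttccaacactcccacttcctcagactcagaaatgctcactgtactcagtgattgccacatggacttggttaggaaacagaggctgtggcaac
S100a9: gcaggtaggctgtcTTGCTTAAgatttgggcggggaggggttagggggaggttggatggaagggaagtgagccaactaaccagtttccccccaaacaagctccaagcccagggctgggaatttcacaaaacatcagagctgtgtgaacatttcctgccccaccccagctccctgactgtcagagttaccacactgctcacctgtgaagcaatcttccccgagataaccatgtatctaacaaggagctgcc

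The motifs were searched on both strands in the 250 bases before the start of 32851 promoters, 12 of which belong to 8 of the S100 genes described (S100a10 and S100a14 had no entry). TATAAA, the TATA box, was in 12.4% of all promoters and in 1 promoter each of S100a3, S100a4 and S100a8, where in S100a8 its first base lies 30 bases before the RefSeq start, within the bases not shown. TTGCNNAA, a pattern bound by C/EBP factors, was in 9.56% of all promoters and among these genes in that of S100a9, where its first base lies 236 bases before the start. TGANTCA, a loose form of the AP-1 pattern with any middle base, was in 6.75% of all promoters and in 1 promoter each of S100a11 and S100a16. The letters were TGAGTCA in S100a11 and TGAATCA in S100a16. GACCACCCA, the pattern bound by Gli factors, was in 0.225% of all promoters and in 0 of these 12. These matches do not overlap each other and describe letters in the window, not binding.

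Of the 10 genes, 0 passed an adjusted p of 0.05 in the edgeR quasi-likelihood test over all genes, where 1.60% of the 15422 genes tested passed (1.24% higher and 0.357% lower in the knockout). DESeq2 also called 0 of them, against 5.89% of the genes it tested, as did limma-voom and limma on the authors' normalized values. Over all genes, the 9 alternatives that kept every library called from 229 (no filter on low counts) to 872 genes (DESeq2). At an unadjusted p under 0.05 there were 3 of 10, S100a8 and S100a9 (higher in the knockout) and S100a16 (lower), against 19.0% of all genes tested (9.90% higher, 9.10% lower). The same 3 were the genes whose knockout and control libraries did not overlap, as was the case for 25.6% of all genes (12.8% above and 12.8% below). A count of 3 of 10 is close to these shares and is not a result about the family. The median log2 fold change of the 10 genes, knockout minus control, was −0.10, beside −0.0036 for all genes tested, and 7 of the 10 were below 0.

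**Figure D1:**
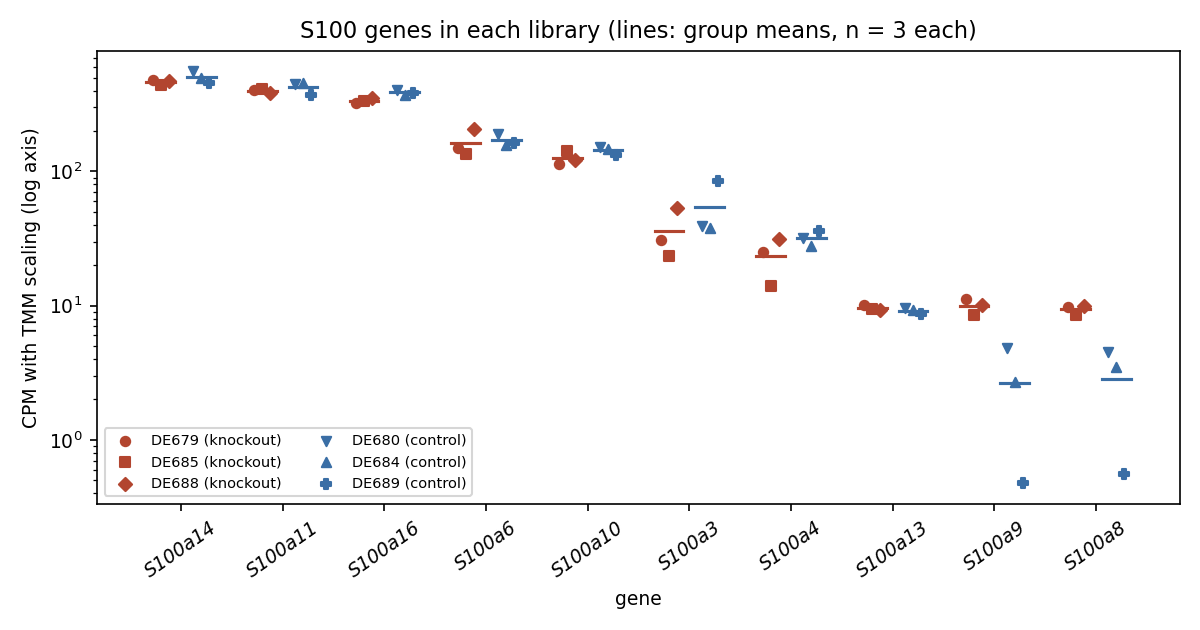
CPM with TMM scaling (log axis) of the 10 S100 genes in each of the 6 libraries, red for knockout and blue for control, with lines at the group means (n = 3 each). For S100a8 and S100a9 every red point lies above every blue point and the control library DE689 lies far below the rest; for most other genes the groups overlap.

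S100a8, the calprotectin subunit that is also a ligand of Tlr4, stood at 9.75, 8.49 and 9.96 CPM in the knockout libraries DE679, DE685 and DE688. The control libraries DE680, DE684 and DE689 had 4.48, 3.51 and 0.555 CPM. Every knockout library was above every control library. The 3 knockout values lay close together, while the control values spread widely, with DE689 far below the other controls. The means were 9.40 ± 0.794 and 2.85 ± 2.04 CPM (SD, n = 3 each), a ratio of 3.30. The log2 fold change was 1.73 (SE 0.56, 95% interval 0.43 to 3.03, edgeR unadjusted p 0.0157, adjusted p 0.166).

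S100a9, its partner in calprotectin, had 11.2, 8.55 and 10.2 CPM in the knockout libraries DE679, DE685 and DE688 and 4.79, 2.68 and 0.476 CPM in the control libraries DE680, DE684 and DE689. Again the groups did not overlap and DE689 was lowest. The means were 9.96 ± 1.32 and 2.65 ± 2.16 CPM (SD, n = 3 each), a ratio of 3.76, with a log2 difference of 1.92 (SE 0.60, 95% interval 0.53 to 3.31, edgeR unadjusted p 0.0129, adjusted p 0.154).

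Both genes had few reads. S100a8 had 14 counts in DE689 (exact Poisson 95% interval 7.65 to 23.5, counting error only) and 80 in DE684 (63.4 to 99.6). S100a9 had 12 and 61 counts in the same libraries, and its count was 1.01 to 1.14 times that of S100a8 in the knockout libraries and 0.763 to 1.07 times in the control libraries. Whether S100a8 passed the threshold depended on DE689: without that control its log2 fold change was smaller, 1.24 (SE 0.18), and the edgeR adjusted p was 0.0456. S100a9 then stood at 1.42 (SE 0.27) with an edgeR adjusted p of 0.0979. Leaving out any other library gave an edgeR adjusted p of 0.167 to 0.389 for S100a8. Between the libraries with Y-linked transcripts, 1 per group, S100a8 was 2.42 times and S100a9 3.19 times the control value; between those without, 2 per group, the ratios of the means were 3.91 and 4.05.

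The patterns of the pair over the 6 libraries were each other's closest match. Likeness was measured as the root mean square difference of log2 CPM, each gene centred on its own mean, over 13678 other genes with a mean of at least 1 CPM. The difference between S100a8 and S100a9 was 0.20, rank 1 for each of them. Next for both was Prss22, which encodes a secreted trypsin-like serine protease, at 0.44 from S100a8 and 0.52 from S100a9. It had 37.8, 46.1 and 38.8 CPM in DE679, DE685 and DE688, and 36.7, 24.6 and 2.14 CPM in DE680, DE684 and DE689, so that its knockout values were again above the control values and DE689 was again lowest. Its log2 fold change was 0.96 (SE 0.71, edgeR adjusted p 0.501), or 0.42 without DE689 and 1.62 without DE680.

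The third match of S100a8 was Krt6b, a keratin of the outer root sheath and of wounded epidermis, at 0.60. Krt6b ranged from 9.94 to 31.8 CPM in the knockout and from 1.59 (DE689) to 11.3 in the control, with overlapping groups. For S100a9 it was Grb14, an adaptor that binds the insulin receptor, at 0.63. Grb14 had 4.37, 3.81 and 3.46 CPM in DE679, DE685 and DE688 and 0.754, 0.790 and 0.317 CPM in DE680, DE684 and DE689, and it passed the test over all genes (log2 fold change 2.64, SE 0.35, edgeR adjusted p 0.0157). That call was lost in 4 of the 6 fits that left out 1 library, with adjusted p up to 0.0695 (without DE679).

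**Figure D2:**
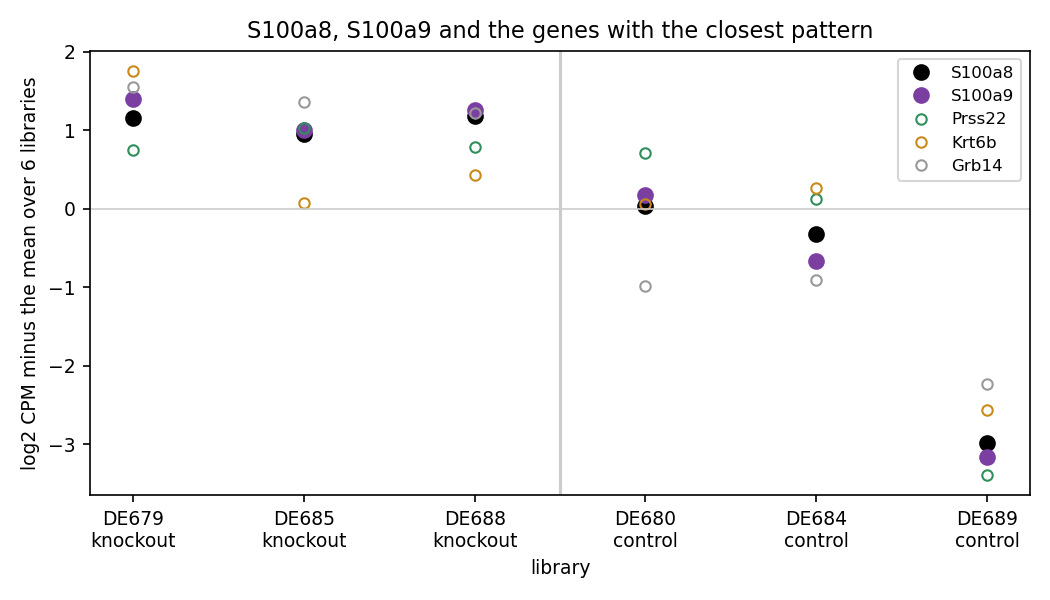
Log2 CPM minus each gene's mean over the 6 libraries, for S100a8 and S100a9 (filled) and the genes with the closest patterns (open), knockout libraries left and control libraries right. S100a8 and S100a9 nearly coincide in every library, and all 5 genes are lowest in DE689.

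Markers of other cell types were measured beside the pair. Of 12 neutrophil markers, Cxcr2, Mmp9 and Camp were analysed, with summed levels of 2.08 to 5.87 CPM in knockout and 3.07 to 6.55 CPM in control libraries; the remaining 9, among them Ly6g, Mpo and Elane, were not analysed here. The highest sums were in DE689 (6.55 CPM, 3.53 CPM of it Cxcr2) and DE688 (5.87 CPM), the libraries with the least and the most S100a8. The most abundant of the 3, the chemokine receptor Cxcr2, had 1.41 ± 0.130 CPM in knockout and 2.76 ± 0.667 CPM in control libraries (SD, n = 3 each; log2 fold change −0.97, SE 0.26, edgeR adjusted p 0.115). Mmp9 and Camp were at 1.81 (SE 0.82, edgeR adjusted p 0.281) and 0.43 (SE 0.85, edgeR adjusted p 0.820) on the log2 scale, with overlapping groups, so that 2 of the 3 were above 0. Summed over 9 markers of monocytes and macrophages, levels were 9.59 to 20.9 CPM in knockout and 8.34 to 13.9 CPM in control libraries. Csf1r, the most abundant of them, had 3.47 to 12.95 CPM and 1.80 to 7.99 CPM, and 6 of the 9 were too low to test, among them Lyz2 (named after its values were seen) at 0.233 CPM or less. The 6 Langerhans cell markers summed to 69.8 to 168 CPM against 35.8 to 144 CPM, and 7 T cell markers to 44.0 to 63.6 CPM against 21.98 to 35.3 CPM, most of it Thy1. The groups did not overlap in the T cell sum. Of the 5 T cell markers tested, Thy1 did not overlap, while Cd3e, Cd3g, Trdc and Ptprc did. Cd4, too low to test, did not overlap either. The part of these cell types in the S100a8 and S100a9 levels was not tested. In bulk RNA, more cells of a type and more transcript per cell cannot be told apart.

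S100a14 and S100a16, epithelial family members that bind each other, were among the most abundant. S100a16 had 323, 334 and 353 CPM in DE679, DE685 and DE688 and 403, 374 and 385 CPM in DE680, DE684 and DE689. All knockout values lay below all control values, and the spread within groups was small. The means were 337 ± 15.05 and 388 ± 14.8 CPM (SD, n = 3 each), with a log2 difference of −0.20 (SE 0.06, 95% interval −0.35 to −0.06, edgeR unadjusted p 0.0111, adjusted p 0.146). This was the lowest adjusted p of the 10 genes, and under the alternatives it ranged from 0.0577 (DESeq2) to 0.432 (without DE679). Of the markers of differentiated keratinocytes, 8 of 8 were below 0, with a median log2 fold change of −0.31. Of these, 4 had an edgeR unadjusted p under 0.05, as did 9.10% of all genes tested in that direction, and 0 passed the edgeR threshold. Their summed level was 27403 to 37026 CPM in knockout and 31839 to 53571 CPM in control libraries. The highest sum was in DE684, the control with the least S100a16, and the other controls had 39393 and 31839 CPM. Krt10, the most abundant of these markers, had a log2 fold change of −0.34, or −0.075 without DE684. Krtdap, Lor and Dsc1, named after their values were seen, were lower in the knockout without overlap, as were 12.8% of all genes tested. Krtdap had 1349 to 1463 CPM in knockout and 1635 to 1779 CPM in control libraries (edgeR adjusted p 0.0858). For Lor and Dsc1 the edgeR adjusted p was 0.196 and 0.0700. The groups overlapped for Krt1, Krt10, Krt2, Ivl and Dsg1a. The part of these markers in the S100a16 values was not tested.

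S100a14 had 477, 439.9 and 469.6 CPM in the same knockout libraries and 557, 493 and 456 CPM in the control libraries. The groups overlapped, since the control DE689 was below 2 of the knockout libraries. The log2 fold change was −0.12 (SE 0.08, edgeR adjusted p 0.469), with a 95% interval of −0.31 to 0.07. It ranged from −0.18 (without DE689) to −0.04 (without DE680) with 1 library left out.

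S100a11 and S100a10 are the members known for their annexin partners, annexin A1 and annexin A2, and S100a11 is built into the cornified envelope of keratinocytes. S100a11 had 406, 414 and 383 CPM in DE679, DE685 and DE688, and 451, 457 and 369.7 CPM in DE680, DE684 and DE689. The control range enclosed the knockout values, and the log2 fold change was −0.09 (SE 0.09, 95% interval −0.30 to 0.12, edgeR adjusted p 0.636). With 1 library left out it ranged from −0.18 (without DE689) to −0.036 (without DE684). S100a11 has an annotated processed pseudogene, so its count is uncertain where reads could be shared. S100a10 had 113, 143 and 123 CPM against 153, 147 and 133 CPM in the same order of libraries. Its knockout library DE685 lay inside the control range and the other knockout libraries below it. The log2 fold change was −0.19 (SE 0.10, 95% interval −0.41 to 0.03, edgeR adjusted p 0.312), or −0.29 without DE685 and −0.12 without DE679.

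S100a6, S100a4 and S100a3 are neighbours among the 10 genes. Their coefficients of variation among knockout libraries were 23.6%, 37.2% and 43.2%, above the 4.04% to 13.2% of the other 7 genes. Among control libraries these coefficients were 9.61%, 12.8% and 49.9%, beside 71.8% for S100a8 and 81.5% for S100a9. S100a6, also called calcyclin and bound by the calcyclin-binding protein, had 151, 134 and 207 CPM in DE679, DE685 and DE688 and 189, 159 and 164 CPM in DE680, DE684 and DE689. The knockout held both the lowest and the highest library, and the log2 difference of −0.056 (SE 0.16, edgeR adjusted p 0.879) turned positive without DE679, DE685 or DE680 (highest 0.069).

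S100a4, which binds non-muscle myosin and is carried by fibroblasts and immune cells, had 25.02, 13.98 and 31.1 CPM in the knockout and 32.1, 27.7 and 35.8 CPM in the control, in the same order of libraries. Its lowest value was in DE685, and DE688 lay within the control range. The log2 fold change was −0.44 (SE 0.25, 95% interval −1.03 to 0.15, edgeR adjusted p 0.387). Without DE685 it was −0.18 (edgeR adjusted p 0.520), and without DE688 it was −0.70 (edgeR adjusted p 0.307). Between the libraries with Y-linked transcripts the S100a4 ratio of knockout to control was 0.505, and between the others 0.826. The 8 fibroblast markers summed to 198 to 238 CPM in knockout and 113 to 132 CPM in control libraries. Dcn, the most abundant of them over all libraries, rose by 1.90 on the log2 scale (SE 0.21, edgeR adjusted p 0.00782), while the collagens Col1a1, Col1a2 and Col3a1, named after their values were seen, had log2 fold changes of −0.38, −0.42 and −0.54 (edgeR adjusted p 0.663, 0.599 and 0.489). Their part in the S100a4 values was not tested.

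S100a3, a cysteine-rich protein of the hair cuticle, had 31.0, 23.3 and 53.1 CPM in DE679, DE685 and DE688 and 38.9, 38.0 and 85.1 CPM in DE680, DE684 and DE689. DE688 and DE689 were the highest libraries of their groups, and the groups overlapped. The log2 fold change was −0.59 (SE 0.38, 95% interval −1.48 to 0.30, edgeR adjusted p 0.443). It was −0.096 without DE689 (edgeR adjusted p 0.918), −0.36 without DE685 (edgeR adjusted p 0.661) and −0.99 without DE688 (edgeR adjusted p 0.328). The summed level of 9 hair shaft keratins was 17.6 CPM in DE689, where S100a3 was highest. It was 55.4 CPM in DE688, the knockout library with the most S100a3, and 52.2 CPM in DE685, with the least. The other libraries had 21.9 to 44.2 CPM. The part of these keratins in the S100a3 values was not tested. Exons of the gene model Gm42674, not analysed here, overlap those of S100a3 and, over 302 bases, those of S100a4 on the same strand, so both counts are uncertain.

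S100a13, which binds copper and takes part in the export of proteins without a signal peptide, was scarce. It had 10.1, 9.36 and 9.34 CPM in DE679, DE685 and DE688 and 9.54, 9.26 and 8.65 CPM in DE680, DE684 and DE689, with overlapping groups. The log2 fold change was 0.072 (SE 0.11, 95% interval −0.19 to 0.33, edgeR adjusted p 0.772), and 0.034 to 0.10 with 1 library left out.

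**Figure D3:**
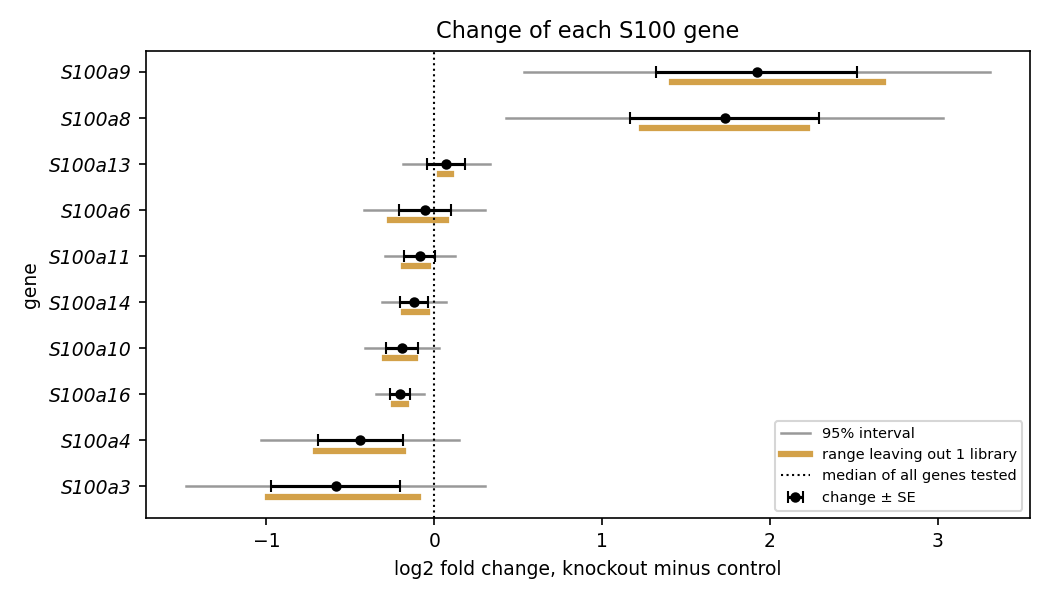
Log2 fold change of each S100 gene, knockout minus control (points, with SE as black bars and the 95% interval as grey lines), and the range over 6 fits that left out 1 library (ochre). S100a8 and S100a9 stand at 1.73 and 1.92, and the other 8 genes lie between −0.59 and 0.072.

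Along the chromosome, S100a6, which ends 44.8 kb before S100a8, had a log2 fold change of −0.056, beside 1.73 and 1.92 for S100a8 and S100a9. S100a7a, a gene between S100a6 and S100a8, had 2 to 9 counts per library and was not tested.

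**Figure D4:**
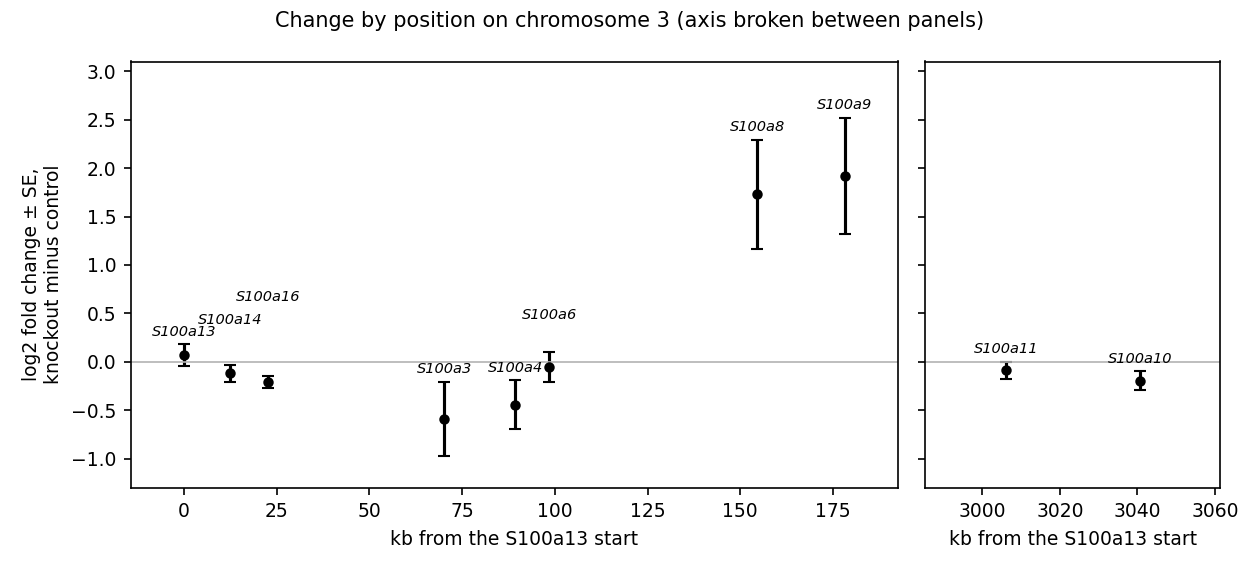
Log2 fold change (± SE) of the 10 genes against the distance in kb of each gene's first base from that of S100a13, with the axis broken between panels. S100a8 and S100a9 stand at 1.73 and 1.92, and the other 8 genes lie between −0.59 and 0.072.

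Levels between genes were compared as CPM per kb of the median coding transcript (GENCODE M21). In the control the order was S100a11 (834 ± 95.6), S100a14 (549 ± 55.8), S100a16 (441 ± 16.8), S100a6 (285 ± 27.4), S100a10 (248 ± 17.1), S100a3 (92.0 ± 45.9), S100a4 (76.4 ± 9.77), S100a13 (12.8 ± 0.637), S100a8 (5.86 ± 4.21) and S100a9 (5.14 ± 4.19 CPM per kb, SD, n = 3). The levels of S100a3 and S100a4 overlapped between libraries, as did those of S100a8 and S100a9; other neighbours in the order did not. In the knockout S100a8 (19.3 ± 1.63) and S100a9 (19.3 ± 2.55 CPM per kb, SD, n = 3) stood above S100a13 (13.4 ± 0.636 CPM per kb) in each of the 3 libraries, so that S100a13 came last. The knockout levels overlapped between S100a6 and S100a10, S100a3 and S100a4, and S100a8 and S100a9. With all annotated exon bases as the length, the mean of S100a3 was 9.54 CPM per kb in the control, below that of S100a13 though the libraries overlapped, and S100a8 stood at 13.5 CPM per kb in the knockout, beside 13.4 CPM per kb for S100a13, so these places in the order depend on the length used.

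Of the other S100 family genes, 5 of 9 were analysed and 3 tested, with 0 past an adjusted p of 0.05 (edgeR), 0 at an unadjusted p under 0.05 and a median log2 fold change of −0.15. S100a1, the most abundant of them, had 16.9 to 17.6 CPM in knockout and 17.7 to 20.8 CPM in control libraries, without overlap (log2 fold change −0.15, SE 0.09, edgeR adjusted p 0.404). Of the S100-fused proteins, filaggrin-type structural proteins of the upper epidermis, 6 of 7 were tested and 0 passed (edgeR), with a median of −0.09. The most abundant, Hrnr, had a log2 difference of −0.35 (SE 0.22, edgeR adjusted p 0.418). It was highest in the control DE684, at 1045 CPM against 525 to 641 CPM in the other libraries, and without DE684 the log2 fold change was −0.022 (edgeR adjusted p 0.929). Rptn, which encodes repetin, was the 1 gene of this list at an unadjusted p under 0.05 and is named after its values were seen. Over all genes tested, 19.0% reached such a p. Rptn had 35.6 to 52.3 CPM in knockout and 18.3 to 29.9 CPM in control libraries (log2 fold change 0.88, SE 0.20, edgeR adjusted p 0.0884).

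Among 8 annexins and intracellular partners, 0 passed the edgeR test and the median was 0.021. Anxa1 and Anxa2, the partners of S100a11 and S100a10, had log2 fold changes of −0.15 (SE 0.10, edgeR adjusted p 0.433) and −0.05 (SE 0.09, edgeR adjusted p 0.820). At an unadjusted p under 0.05 there were 2, against 19.0% of all genes tested. They were Cacybp, which encodes the calcyclin-binding protein, and Anxa6, the latter named after its values were seen. Cacybp had 49.4 to 57.0 CPM in knockout and 65.6 to 70.8 CPM in control libraries, without overlap (log2 fold change −0.37, SE 0.07, edgeR adjusted p 0.0603); it passed in DESeq2 (adjusted p 0.00388) and with a sex covariate in edgeR (adjusted p 0.0228). Anxa6 had a log2 difference of 0.83 (SE 0.26, edgeR adjusted p 0.151). The most abundant of this list, Ahnak, the giant scaffold bound by S100a10 and annexin A2, was at 1924 ± 153 and 1894 ± 83.5 CPM (SD, n = 3 each).

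Among 9 receptors and adaptors for extracellular S100 proteins, 1 rose and 0 fell, against 1.24% and 0.357% of all genes tested. The median was −0.04. The one that rose was Alcam, a cell adhesion molecule of the immunoglobulin family, with 90.6, 113 and 98.5 CPM in DE679, DE685 and DE688 and 59.4, 63.3 and 60.6 CPM in DE680, DE684 and DE689 (log2 fold change 0.72, SE 0.09, edgeR adjusted p 0.0111). Without DE680 its adjusted p was 0.0552. Bsg, the most abundant receptor listed, stood at 263 ± 16.1 and 263 ± 15.8 CPM in knockout and control (SD, n = 3 each; log2 fold change −0.0053, SE 0.07, edgeR adjusted p 0.976). The classical alarmin receptors were scarce. Ager had 2.54 to 3.31 CPM in knockout and 1.64 to 3.16 CPM in control libraries (edgeR adjusted p 0.507), and Tlr4 1.44 to 1.82 and 0.932 to 1.90 CPM (edgeR adjusted p 0.804).

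Of 13 other alarmins, 10 were analysed and 8 tested, and 0 passed the edgeR test or reached an unadjusted p under 0.05 (median −0.03). The nuclear protein Hmgb1, the most abundant, had 482 to 501 CPM in knockout and 495 to 506 CPM in control libraries (edgeR adjusted p 0.782). The cytokine gene Il1a had 1.68 to 2.46 and 1.64 to 2.50 CPM (edgeR adjusted p 0.877). Il1b had 0.278 CPM or less in every library and was not tested.

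Among antimicrobial and interleukin-17 or interleukin-22 response genes, 9 of 15 were tested. Of these, 1 rose and 0 fell, against 1.24% and 0.357% of all genes tested, and the median was 0.16. Defb6, a beta-defensin of skin and the most abundant of this list, had 265, 259 and 283 CPM in DE679, DE685 and DE688 and 176, 163 and 111 CPM in DE680, DE684 and DE689, lowest in DE689 as S100a8 was (log2 fold change 0.85, SE 0.15, edgeR adjusted p 0.0443). Its call was lost when any library other than DE689 was left out, with adjusted p up to 0.157. Other genes of this list at an unadjusted p under 0.05, as were 19.0% of all genes tested, are named after their values were seen. They were Ccl20 and Zc3h12a (log2 fold changes 0.74 and 0.59, edgeR adjusted p 0.221 and 0.213) and Il22ra1, the interleukin-22 receptor subunit (−0.42, edgeR adjusted p 0.0949).

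Of 11 stress keratins and wound-associated genes, all tested, 0 passed the edgeR test, and the median was 0.16. At an unadjusted p under 0.05 there were 2, against 19.0% of all genes tested. They were Krt17, the most abundant of the list, and Sprr1b, named after its values were seen. Krt17 had 1484 to 2039 CPM in knockout and 1039 to 1405 CPM in control libraries (log2 fold change 0.52, SE 0.16, edgeR adjusted p 0.146; DESeq2 adjusted p 0.00767). Sprr1b, a cornified envelope precursor, was at −0.74 (SE 0.15, edgeR adjusted p 0.0603). Krt6a and Krt16, keratins that are induced with S100a8 and S100a9 in wounded skin, had log2 fold changes of 0.074 (SE 0.19, edgeR adjusted p 0.867) and 0.16 (SE 0.39, edgeR adjusted p 0.856). Both were lowest in DE689, Krt16 at 28.3 CPM against 56.8 to 96.0 CPM in the other libraries, and without that control their log2 fold changes were −0.10 and −0.20.

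**Figure D5:**
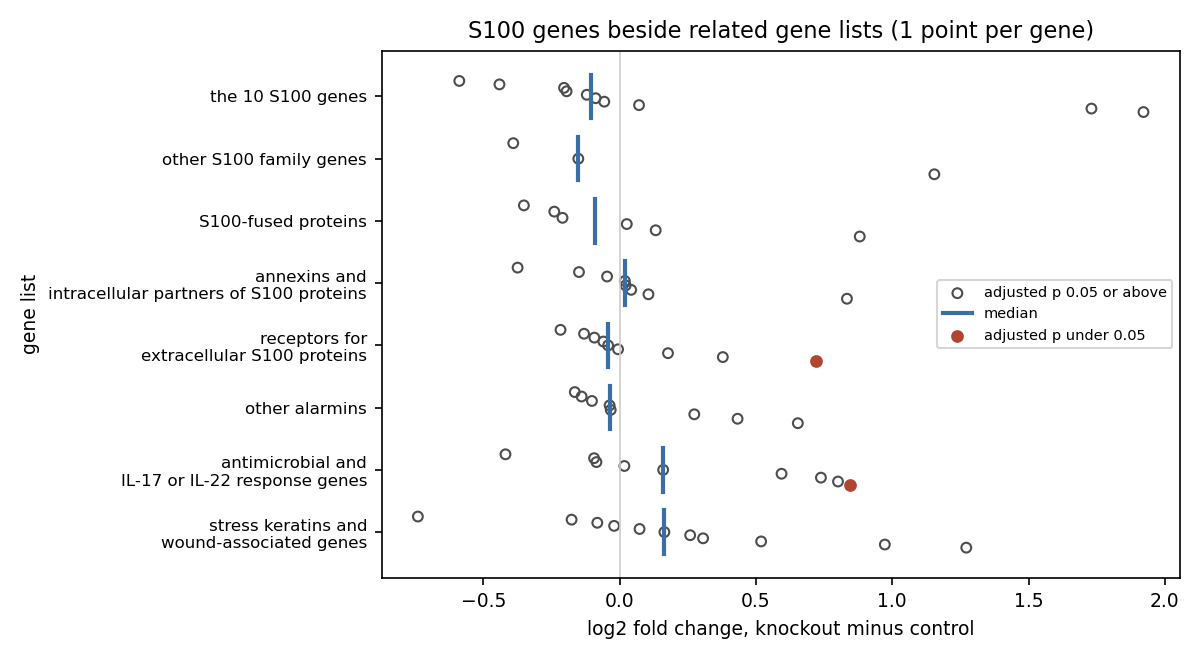
Log2 fold change, knockout minus control, of the 10 S100 genes and of the tested genes of 7 related lists (1 point per gene, filled where the edgeR adjusted p is under 0.05), with each list's median as a blue line. Alcam and Defb6 are the filled points, and S100a8 and S100a9 are the points farthest to the right.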

How the data were processed

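The members and lists were chosen with earlier results of these data known. The authors deposited estimated counts per gene and a normalized signal per gene. The deposited signal equals the estimated count times a constant per library, 0.997 to 1.00 times that of CPM with TMM scaling, plus a small offset. Per the submitters' processing notes, bcl2fastq 2.20, cutadapt 1.18, STAR 2.7.0f and Partek were used with mm10; the counting tool and its strand setting are not given in the sources used here. Estimated counts were rounded, filtered with filterByExpr and fitted over all 6 libraries with glmQLFit and glmQLFTest of edgeR 4.0.16 (TMM, genotype only), with Benjamini-Hochberg adjustment over 15422 genes. The design was written for counts, and the same test was kept. The standard error is the absolute log2 fold change over the square root of F, and 95% intervals use the test's degrees of freedom. With 3 against 3, an exact permutation test of a single value cannot go below 0.1. The labels name no separate cultures beyond the samples, so p-values measure the spread between samples.

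Named were the 10 members, Gpr161, Gli1, a few fixed partners, up to 3 genes past the threshold and the most abundant gene of each of 7 lists and 11 marker lists, and the 3 genes most like S100a8 and S100a9 (pseudocount 0.01 CPM); Ptch1, a further label check, was higher by 1.58 (edgeR adjusted p 0.00228). In other marker lists the most abundant genes did not pass in edgeR: Csf1r (adjusted p 0.546), Cd74 (0.614), Thy1 (0.0560), Dct (0.218), Pecam1 (0.486), Krt35 (0.502), Erbb3 (0.357), Krt5 (0.273) and Krt10 (0.423). The melanocyte markers were above 0 in 7 of 7 (median 0.53, 3 at an unadjusted p under 0.05, 0 past the edgeR threshold). Over all genes tested, 9.90% were higher at that unadjusted p. Gene ends are given as the deposited stop minus 1, which matches GENCODE M21. Alternatives were other scalings and filters, DESeq2 1.42.0, limma 3.58.1 (voom, and a trend on log2 of the authors' values plus 1 or 0.1), a sex covariate and each library left out in turn.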

Additional observations from a re-analysis of the deposited data

How the results depend on the processing

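The count of S100 genes past the threshold was 0 in the edgeR fit and in all 9 alternatives that kept every library, and ranged from 0 to 1 with one library left out, the 1 being S100a8 without DE689. The count over all genes, 247, was 872 with DESeq2 and 409 with a sex covariate, and 69 to 121 with 1 library left out. The cause of these rises and falls was not tested. Of the 10 S100 genes, S100a6 changed sign, from −0.26 to 0.069 with one library left out, and the others kept their direction in every alternative. Among other named genes near 0 the same fits spanned −0.039 to 0.48 for Tlr4, −0.057 to 0.026 for Bsg, −0.11 to 0.0024 for Anxa2, −0.30 to 0.042 for Il1a, −0.10 to 0.23 for Krt6a, −0.20 to 0.43 for Krt16 and −0.015 to 0.087 for Ahnak; Bsg was also 0.011 with upper-quartile factors. No paired analysis was possible because the column names carry no replicate number or sample title. Depth limits the scarcest genes, since 3 counts are 0.117 to 0.173 CPM.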
